A study of Ovis aries with 2 samples.

Results

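HSPA6, DNAJB1, HMOX1 and HSPD1 are 4 stress genes among the 13765 features listed for sheep cerebral cortex, and all 4 symbols were found in both libraries. They were chosen by symbol, with the ratios between the libraries already known. HSPA6 and HMOX1 had been among the highest ratios over all nuclei, and HSPA6 and DNAJB1 among the highest within microglia-like nuclei. Those ratios are therefore given here as a description, and they support nothing by themselves. What the choice did not use is which barcode depths carried the 4 genes and whether 1 barcode carried several. The lists of other genes of the same pathways were written with earlier results known, so their values are a description too.

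The libraries hold single-nucleus RNA counts from adult female Rambouillet sheep of 18 to 36 months, labelled wildtype, without treatment in life and in the same batch. The post-processed library came from cortex that went through removal of debris and red blood cells before its nuclei were isolated, and the pre-processed library from cortex whose nuclei were isolated at once. The series text speaks of 1 ewe and of about 5000 nuclei per condition. For the post-processed library the label on treatment states that no such removal took place. That contradicts its title and the series text, so which library is called post-processed follows the titles. With 1 library per condition there is no replicate and no test. Processing of the tissue, the library and its sequencing depth cannot be told apart.

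Cells that meet unfolded protein activate heat shock factor HSF1, which switches on HSP70 chaperones such as HSPA6 and HSP40 co-chaperones such as DNAJB1. HSPA6 is known from human cells as a strictly inducible HSP70, nearly silent at rest. HMOX1 encodes the inducible haem oxygenase, which opens haem into biliverdin, carbon monoxide and iron. It is repressed by BACH1 until haem releases that factor, and it is activated by NRF2. HSPD1 encodes HSP60, the chaperonin of the mitochondrial matrix, which resting cells make too. In brain, microglia and other macrophages take up red cells and express HMOX1 when they do.

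The post-processed library held 905 barcodes with a median of 146 unique molecular identifiers (UMIs), of which 494 had at least 100 detected genes and were kept as nuclei, with a median of 667.5 UMIs. The pre-processed library held 2125 barcodes, all kept, with a median of 2524 UMIs. The kept nuclei summed to 765208 and 9580441 UMIs of the listed genes. No barcode occurred in both libraries. Levels below are UMIs per 1000000 UMIs of the listed genes (CPM), summed over the nuclei of a group. Intervals are exact 95% intervals and cover counting error only. Nuclei were clustered and classes named from marker genes. The cluster called microglia-like had all 11 measured microglial markers raised, and these summed to 12022 CPM in its 176 post-processed nuclei and 11816 CPM in its 85 pre-processed nuclei. A shallow cluster of 230 post-processed nuclei and 1 pre-processed nucleus, with a median of 234.5 UMIs, was closest to microglia and stayed unnamed because of its depth. Its microglial markers summed to 11877 CPM in the post-processed nuclei. Its leading genes were GNLY, THBS1 and CD69. Markers of endothelium summed to 2272 CPM there, against 724 CPM in post-processed microglia-like nuclei, and markers of lymphocytes and other blood cells to 878 CPM, against 120 CPM. Their part in the levels of this cluster was not tested.

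Over all nuclei, HSPA6 was seen almost only in the post-processed library. It had 248 UMIs or 324 CPM (285 to 367) in the 494 post-processed nuclei, against 3 UMIs or 0.313 CPM (0.0646 to 0.915) in the 2125 pre-processed nuclei. The ratio of 1035 has a counting interval of 350 to 5053 because it rests on those 3 UMIs. DNAJB1, the HSP40 partner of HSP70, had 555 UMIs or 725 CPM in post-processed nuclei and 123 UMIs or 12.8 CPM in pre-processed nuclei, a 56.5-fold ratio (46.4 to 69.3). HMOX1 had 170 UMIs or 222 CPM in post-processed nuclei and 9 UMIs or 0.939 CPM in pre-processed nuclei, a 236-fold ratio (122 to 526).

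HSPD1 had the smallest ratio of the 4 genes. It had 106 UMIs or 139 CPM in post-processed nuclei and 386 UMIs or 40.3 CPM in pre-processed nuclei, a 3.44-fold ratio (2.75 to 4.27). HSPD1 was thus present in both libraries, as was DNAJB1 at a lower pre-processed level, while HSPA6 was nearly absent from the pre-processed library. Of 8344 genes with at least 10 UMIs over both libraries, 32.0% were at least 2-fold higher in post-processed nuclei and 24.1% at least 2-fold lower, and all 4 stress genes were among the higher ones. By ratio HSPA6 held rank 2, HMOX1 rank 13, DNAJB1 rank 45 and HSPD1 rank 1462. Scaling by the median of gene ratios instead of total UMIs lowered every log2 ratio over all nuclei by 0.50, which left HSPD1 at 1.28, and raised every one in microglia-like nuclei by 0.13. The classes present differed too, with 0 neuron-like nuclei in the post-processed library, against 1057 in the pre-processed library. Their part in the ratios over all nuclei was not tested.

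The same comparison was made within microglia-like nuclei, a class whose finer clusters were unequally filled in the libraries, as given below. HSPA6 had 203 UMIs or 413 CPM (358 to 473) in the 176 post-processed nuclei and 0 UMIs in the 85 pre-processed nuclei. With 3 counts set as the floor of the pre-processed nuclei, it was at least 18.1-fold higher in the post-processed ones. DNAJB1 had 455 UMIs or 925 CPM (842 to 1014) in post-processed and 1 UMI or 7.61 CPM (0.193 to 42.4) in pre-processed microglia-like nuclei, a log2 ratio of 6.34 (4.44 to 12.23).

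HMOX1 had 146 UMIs or 297 CPM (251 to 349) in post-processed microglia-like nuclei, and 2 UMIs or 15.2 CPM (1.84 to 55.0), both in 1 nucleus, in pre-processed ones. Its log2 ratio was 3.97 (2.41 to 7.34). HSPD1 had 79 UMIs or 161 CPM (127 to 200) in post-processed and 3 UMIs or 22.8 CPM (4.71 to 66.7) in pre-processed microglia-like nuclei, a log2 ratio of 2.60 (1.21 to 5.12). All 4 genes were at least 2-fold higher here, in a comparison of 5071 genes of which 11.8% were at least 2-fold higher and 16.0% at least 2-fold lower. HSPA6 held rank 3, DNAJB1 rank 4, HMOX1 rank 24 and HSPD1 rank 153.

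Some reads of HSPD1 may belong to a neighbour. In RefSeq's genes for assembly ARS-UI_Ramb_v3.0 its span overlaps that of MOB4, and whether counting used strand is not given in the sources used here. MOB4 had a log2 ratio of 2.03 (1.67 to 2.37) over all nuclei and 1.62 (0.45 to 3.42) in microglia-like nuclei. The 2 genes can therefore not be told apart with certainty. HSPA6 has close HSP70 relatives, and how reads shared with them were counted is likewise not given.

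Oligodendrocyte-like nuclei were the other glial class with more than 50 nuclei in each library, and HSPA6, DNAJB1 and HMOX1 were lower in its post-processed nuclei than in the microglia-like ones, or at 0. HSPA6 had 2 UMIs, both in 1 nucleus, in the 57 post-processed nuclei and 0 UMIs in the 178 pre-processed ones. HMOX1 had 0 UMIs in both. DNAJB1 had 12 UMIs or 86.2 CPM (44.5 to 151) in post-processed and 3 UMIs or 10.1 CPM (2.08 to 29.5) in pre-processed oligodendrocyte-like nuclei, a log2 ratio of 2.93 (1.20 to 5.56).

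HSPD1 ran another way in this class. It had 13 UMIs or 93.4 CPM (49.7 to 160) in post-processed and 29 UMIs or 97.7 CPM (65.4 to 140) in pre-processed oligodendrocyte-like nuclei, a log2 ratio of -0.03 (-1.13 to 0.92). The interval holds both equality and a near 2-fold difference in either direction.

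**Figure D1:**
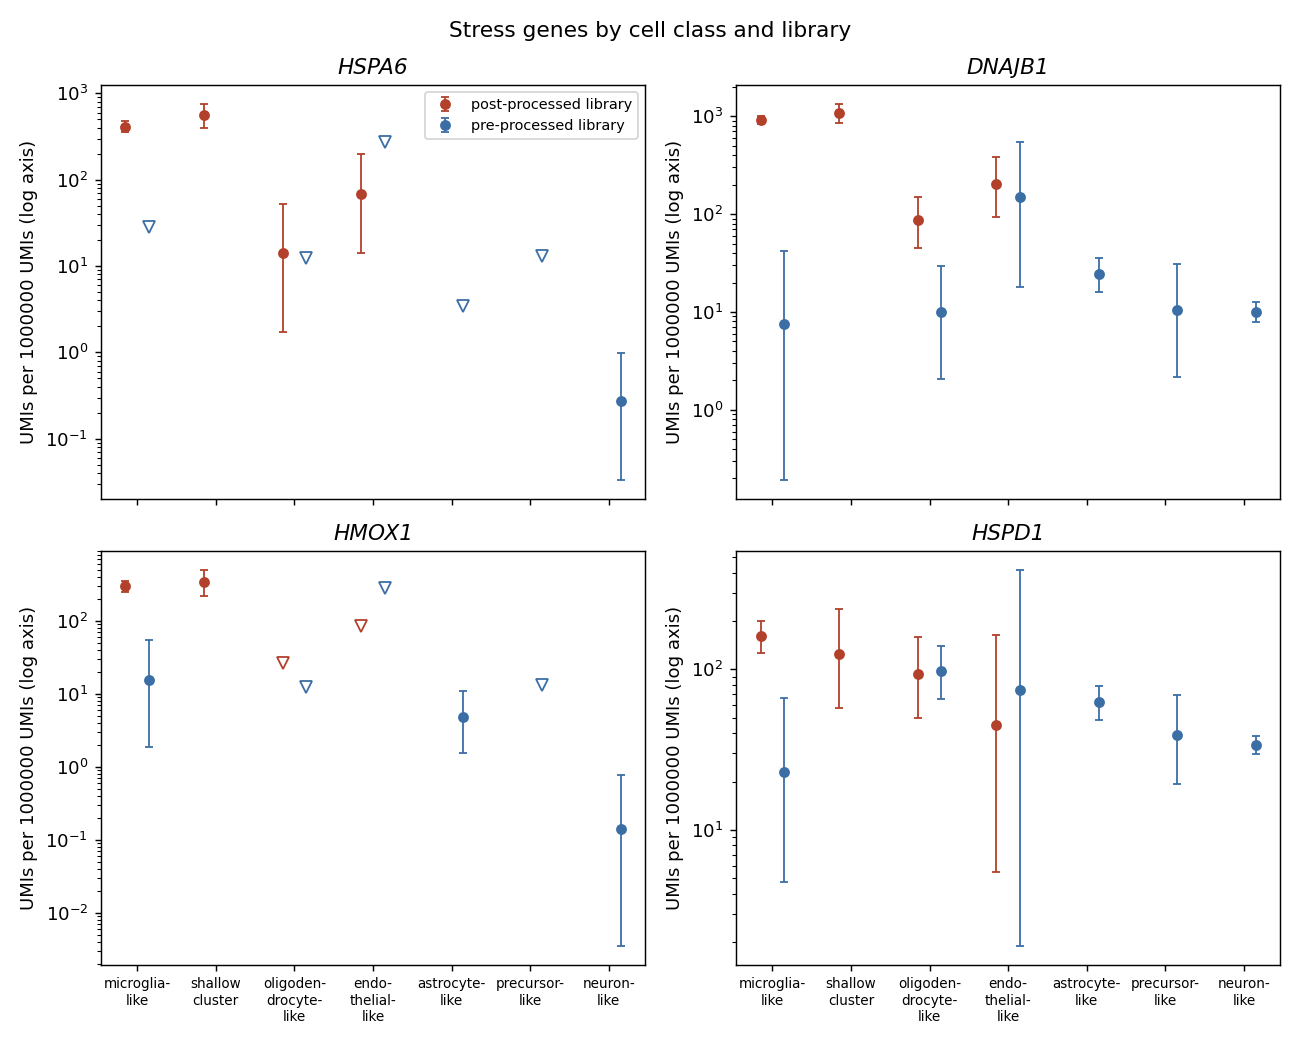
Level of each gene (CPM, log axis) by cell class, with the post-processed library left of the pre-processed one, for groups of at least 6 nuclei. Points are summed levels with exact Poisson intervals, and an open triangle marks the upper limit of a group with 0 UMIs. HSPA6, DNAJB1 and HMOX1 lie highest in post-processed microglia-like nuclei and the shallow cluster, while HSPD1 lies between 22.8 and 161 CPM in the classes shown.

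The shallow cluster carried the 4 genes at levels close to those of microglia-like nuclei. HSPA6 stood at 558 CPM (398 to 759), DNAJB1 at 1073 CPM (847 to 1342), HMOX1 at 335 CPM (214 to 498) and HSPD1 at 125 CPM (57.4 to 238) in its 230 post-processed nuclei. The 26 post-processed endothelial-like nuclei, the cells that line vessels, had 3 UMIs of HSPA6, 9 of DNAJB1, 0 of HMOX1 and 2 of HSPD1. Microglia-like nuclei held 64.3% of the post-processed UMIs of all genes. Their share was 81.9% (76.5 to 86.4) for HSPA6, 82.0% (78.5 to 85.1) for DNAJB1, 85.9% (79.7 to 90.7) for HMOX1 and 74.5% (65.1 to 82.5) for HSPD1.

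In the pre-processed library the few UMIs lay elsewhere. Of its 3 HSPA6 UMIs, 2 came from neuron-like nuclei and 1 from an unnamed cluster closest to astrocytes. Of its 9 HMOX1 UMIs, 5 came from astrocyte-like, 2 from microglia-like and 1 from neuron-like nuclei, with 1 in the unnamed cluster. DNAJB1 lay between 7.61 CPM in microglia-like and 27.6 CPM in the unnamed cluster among classes of more than 50 nuclei. Among the named classes of more than 50 nuclei it was highest in astrocyte-like nuclei, at 24.5 CPM (16.0 to 35.9), against 10.1 CPM (7.89 to 12.7) in neuron-like nuclei.

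Like DNAJB1, HSPD1 was carried by all of the named pre-processed classes. It stood at 97.7 CPM in oligodendrocyte-like, 62.2 CPM (48.1 to 79.2) in astrocyte-like, 38.8 CPM (19.4 to 69.4) in oligodendrocyte precursor-like, 33.9 CPM (29.8 to 38.4) in neuron-like and 22.8 CPM in microglia-like nuclei, besides 1 UMI in 6 endothelial-like nuclei. The intervals of oligodendrocyte-like and astrocyte-like nuclei overlapped, and both lay above that of neuron-like nuclei. The interval of precursor-like nuclei overlapped those of neuron-like and astrocyte-like nuclei. In the order of levels for HSPD1, microglia-like nuclei were lowest in the pre-processed library. That place rests on 3 UMIs, and the interval of 4.71 to 66.7 CPM overlapped those of all other named classes. Among the named classes of more than 20 nuclei in the post-processed library, microglia-like nuclei were highest. Their interval there, 127 to 200 CPM, overlapped that of oligodendrocyte-like nuclei.

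Depth matters for any share of nuclei that carry a gene, so both the shares as measured and shares at equal depth are given. As measured, HSPA6 was carried by 73 of 176 post-processed microglia-like nuclei (41.5%), DNAJB1 by 110 (62.5%), HMOX1 by 46 (26.1%) and HSPD1 by 45 (25.6%), at a median of 1566 UMIs. Post-processed oligodendrocyte-like nuclei, at a deeper median of 2434 UMIs, carried HSPA6 in 1 of 57 (1.75%), DNAJB1 in 9 (15.8%, 7.48 to 27.9), HSPD1 in 10 (17.5%, 8.75 to 29.9) and HMOX1 in 0. A count of 0 is read with a limit of 3 counts, which here allows up to 5.26%, and the exact interval reaches 6.27%. For HSPD1 the interval of microglia-like nuclei (19.3 to 32.7) overlapped that of oligodendrocyte-like nuclei. Pre-processed microglia-like nuclei, at a median of 1291 UMIs, carried HSPA6 in 0 of 85, which allows up to 3.53% by that limit and 4.25% by the exact interval, DNAJB1 in 1, HMOX1 in 1 and HSPD1 in 3.

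With each nucleus thinned to 200 UMIs, the post-processed microglia-like nuclei carried HSPA6 in 9.66% (5.73 to 15.01), DNAJB1 in 19.3% (13.8 to 25.9), HMOX1 in 6.25% (3.16 to 10.9) and HSPD1 in 5.11% (2.36 to 9.49). The 141 nuclei of the shallow cluster that reach that depth gave 9.93%, 17.0%, 5.67% and 2.84% for the same genes, with intervals that overlap those of microglia-like nuclei. The shallow cluster left out 89 nuclei under 200 UMIs. Post-processed oligodendrocyte-like nuclei gave 0 of 57 for HSPA6 and for HMOX1 and 1.75% for DNAJB1 and for HSPD1. Pre-processed microglia-like nuclei gave 0 of 85 for HSPA6, DNAJB1 and HMOX1 and 1.18% for HSPD1. For HSPA6 the interval of post-processed microglia-like nuclei lay above that of pre-processed ones and overlapped that of oligodendrocyte-like nuclei. For DNAJB1 the interval of post-processed microglia-like nuclei lay above the intervals of both other groups. For HMOX1 and HSPD1 it overlapped them at this depth.

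By depth, the 4 genes reached down to the shallowest barcodes of the post-processed library. All 905 barcodes were used here, with those under 100 detected genes. From barcodes under 100 UMIs to those of 5000 or more, HSPA6 stood at 1012, 508, 463, 561, 410, 240 and 292 CPM over the 7 depth classes. The share of barcodes that carried it ran from 6.50% of 354 barcodes under 100 UMIs to 58.6% of 29 barcodes of 5000 or more. The level per UMI was thus highest at the shallow end, where 23 barcodes carried 1 UMI each. These values pool all cell classes. At 2000 to under 5000 UMIs the pooled share was 23.1% of 91 barcodes, against 41.3% of 46 microglia-like nuclei. In microglia-like nuclei HSPA6 stood at 485, 575, 452 and 319 CPM, from 500 to under 1000 UMIs up to 5000 or more. The 8 such nuclei of 200 to under 500 UMIs held 3 UMIs. The part of cell class in the pooled order was not tested.

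DNAJB1 stood at 1188, 762, 981, 1007, 836, 542 and 758 CPM over the same depth classes of all barcodes. At 2000 to under 5000 UMIs it stood at 918 CPM in microglia-like nuclei alone. Its carriers ran from 6.21% to 79.3% of barcodes. HSPD1 stayed between 102 and 231 CPM. HMOX1 was uneven, at 528, 102, 272, 512, 92.0, 200 and 235 CPM. A single microglia-like nucleus of 628 UMIs carried 8 of the 23 HMOX1 UMIs found in the 42 microglia-like nuclei of 500 to under 1000 UMIs.

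Pre-processed barcodes began at 904 UMIs, so the shallow end has no counterpart there. In barcodes of 1000 UMIs or more, where both libraries had barcodes, HSPA6 lay between 240 and 410 CPM in post-processed and between 0 and 0.933 CPM in pre-processed barcodes. HSPA6, chosen with its ratio known, thus stood apart between the libraries at matched depth too. The classes of cell at a given depth differ between the libraries. Within microglia-like nuclei of 1000 to under 2000 UMIs HSPA6 stood at 575 CPM (420 to 770) in 54 post-processed nuclei. The 60 pre-processed ones had 0 UMIs, with an upper limit of 47.4 CPM.

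**Figure D2:**
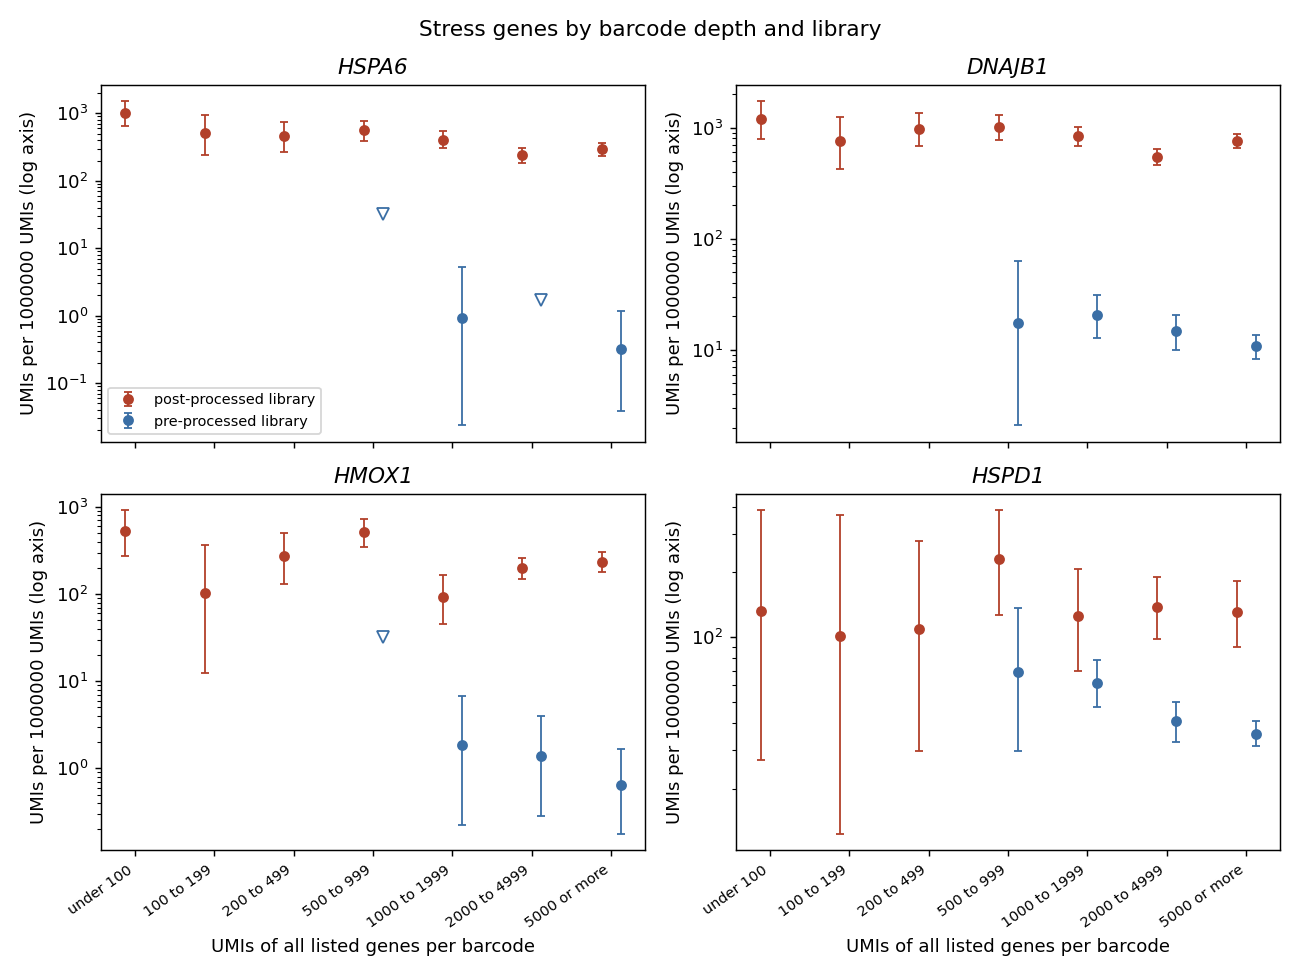
Level of each gene (CPM, log axis) by the number of UMIs per barcode, for all barcodes of the post-processed library, drawn left, and the pre-processed library, drawn right. Bars are exact Poisson intervals and open triangles the upper limit where no UMI was found. HSPA6 lies between 240 and 1012 CPM across the post-processed depths, and pre-processed barcodes hold at most 2 of its UMIs at any depth.

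The 411 post-processed barcodes under 100 detected genes, left out as nuclei, had a median of 64 UMIs. They held 27 UMIs of HSPA6, 30 of DNAJB1, 12 of HMOX1 and 4 of HSPD1. Their summed microglial markers stood at 10623 CPM, beside 12022 CPM in microglia-like and 323 CPM in oligodendrocyte-like nuclei of the same library. Markers of other classes were as high there as in microglia-like nuclei or higher, with astrocyte markers at 1897 CPM against 264 CPM, endothelial markers at 3001 CPM against 724 CPM and oligodendrocyte markers at 7208 CPM against 6573 CPM. HSPA6 made 37.0% of the summed UMIs of the 4 genes there, 26.7% in the shallow cluster and 23.0% in microglia-like nuclei, against 7.41% in oligodendrocyte-like nuclei. HMOX1 made 16.4% in these barcodes, 16.0% in the shallow cluster and 16.5% in microglia-like nuclei, against 0% in oligodendrocyte-like nuclei. The origin of these barcodes was not tested.

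Some shallow barcodes of the post-processed library resembled deeper ones. In that library 64 of 905 barcodes differed by at most 2 bases from a deeper barcode, and in the pre-processed library 0 of 2125 did. The 64 had a median of 70 UMIs, and 14 of them had at least 100 genes. They held 1 UMI of HSPA6, 6 of DNAJB1, 3 of HMOX1 and 2 of HSPD1. Of the 64, 7 carried a stress gene, and in all 7 the deeper barcode carried the same gene. For 48 of the 64 the deeper barcode was microglia-like, a class in which 79.0% of post-processed nuclei carried at least 1 of the genes. Whether the 7 matches exceed what that class gives was not tested. Without the 64 barcodes, no recomputed value on the 4 genes moved beyond its counting interval. Recomputed were ratios, shares of UMIs, shares of nuclei at equal depth and pairs of genes. Levels by depth and levels in barcodes under 100 detected genes were not recomputed.

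The same barcodes often carried several of the genes. At least 1 of the 4 was carried by 139 of 176 post-processed microglia-like nuclei (79.0%, 72.2 to 84.7), at least 2 by 85 (48.3%, 40.7 to 55.9), at least 3 by 40 (22.7%) and all 4 by 10 (5.68%). In pre-processed microglia-like nuclei 5 of 85 carried 1 gene and 0 carried 2, which allows up to 3.53%. Over all pre-processed nuclei 26 of 2125 (1.22%) carried 2 and none carried 3, which allows up to 0.141%. Carriers were deep. The 10 nuclei with all 4 genes had a median of 9643 UMIs, against 1566 UMIs over the class.

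**Figure D3:**
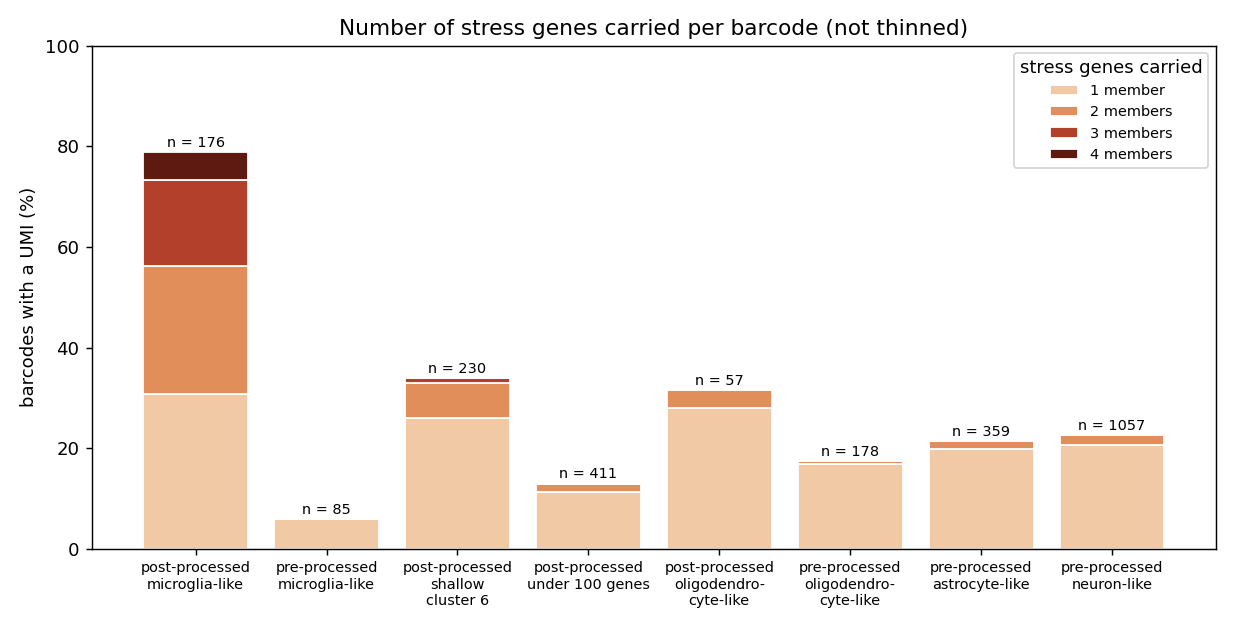
Percent of barcodes that carried 1, 2, 3 or 4 of the genes, as measured, by class and library, with the number of barcodes above each bar. Post-processed microglia-like nuclei carried at least 1 gene in 79.0% and at least 2 in 48.3%, while pre-processed microglia-like nuclei carried 1 in 5.88% and 2 in none.

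DNAJB1 led the combinations. Alone it was seen in 29 post-processed microglia-like nuclei, with HSPA6 in 22, and with HSPA6 and HMOX1 in 15. HSPA6 alone was seen in 13. HMOX1 occurred with neither HSPA6 nor DNAJB1 in 6 nuclei, 5 times alone and once with HSPD1. None of the 4 was seen in 37 nuclei.

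**Figure D4:**
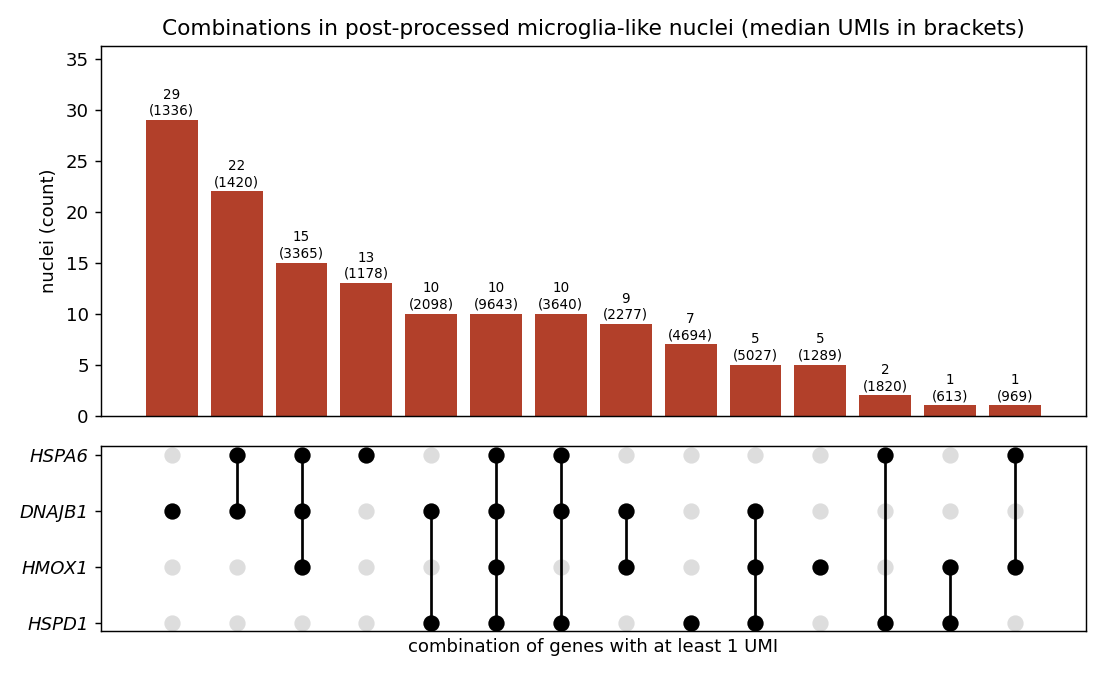
Number of post-processed microglia-like nuclei (vertical axis) with each combination of the 4 genes, shown by joined dots below, and the median UMIs of those nuclei in brackets. DNAJB1 alone leads with 29 nuclei, and the 10 nuclei with all 4 genes are the deepest, with a median of 9643 UMIs.

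At equal depth the overlap could not be resolved. With nuclei thinned to 200 UMIs, 10 of 176 post-processed microglia-like nuclei (5.68%, 2.76 to 10.2) carried at least 2 of the genes. DNAJB1 was then carried by 3 of 17 HSPA6 carriers (17.6%) and by 31 of 159 non-carriers (19.5%), a difference of -1.85 points (-17.4 to 24.6). The differences of the 6 pairs ran from -5.66 to 8.24 points, and all 6 intervals included 0. With nuclei of at least 500 detected genes 1 of them did not, HSPD1 by DNAJB1, at 10.8 points (0.903 to 27.4). As measured, DNAJB1 was carried by 78.1% of HSPA6 carriers and 51.5% of non-carriers, and HMOX1 by 35.5% of DNAJB1 carriers and 10.6% of non-carriers. Those figures contain depth, since HSPA6 carriers had a median of 1977 UMIs and non-carriers 1465.

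Within a depth class the DNAJB1 difference was seen among deeper nuclei. Of post-processed microglia-like nuclei with 2000 to under 5000 UMIs, 17 of 19 HSPA6 carriers and 14 of 27 non-carriers carried DNAJB1, a difference of 37.6 points (7.78 to 59.6). Of those with 5000 UMIs or more, 17 of 17 carriers and 5 of 9 non-carriers did, a difference of 44.4 points (8.03 to 78.8). That class has no upper limit, so depth still varies within it. Among nuclei of 1000 to under 2000 UMIs the difference was 7.15 points (-21.3 to 33.6). At 2000 to under 5000 UMIs the difference for HMOX1 was 32.0 points (0.19 to 58.4) by HSPA6 and 38.3 points (5.42 to 59.9) by DNAJB1. At 5000 UMIs or more both of these intervals included 0. Pairs with HSPD1 had intervals that included 0 in both depth classes. At 5000 UMIs or more HSPD1 gave -19.0 points by HSPA6 and -11.4 points by DNAJB1.

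Levels were also compared per UMI, relative to depth. Among post-processed microglia-like nuclei with at least 1000 UMIs, DNAJB1 stood at 1145 CPM in 59 HSPA6 carriers and at 601 CPM in 67 non-carriers, a log2 ratio of 0.93 (0.62 to 1.24). HMOX1 stood at 330 CPM in 86 DNAJB1 carriers and at 40.1 CPM in 40 non-carriers, a log2 ratio of 2.88 (1.65 to 4.94). HMOX1 stood at 366 CPM in HSPA6 carriers and 145 CPM in non-carriers, a log2 ratio of 1.31 (0.72 to 1.98). The reverse was smaller, as HSPA6 in HMOX1 carriers over non-carriers had a log2 ratio of 0.32 (-0.11 to 0.75), whose interval includes 0.

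HSPD1 did not share this order with HSPA6 and HMOX1. It stood at 139 CPM in HSPA6 carriers and 170 CPM in non-carriers, a log2 ratio of -0.29 (-1.01 to 0.43). In HMOX1 carriers it stood at 141 CPM, against 164 CPM in non-carriers. HMOX1 was lower in HSPD1 carriers, at 215 CPM against 317 CPM in non-carriers, a log2 ratio of -0.56 (-1.11 to -0.02). HSPD1 was higher in DNAJB1 carriers, at 173 CPM against 80.2 CPM in non-carriers, a log2 ratio of 1.04 (0.04 to 2.39). The value in non-carriers rests on 8 UMIs. The reverse did not show this, as DNAJB1 stood at 834 CPM in HSPD1 carriers and 965 CPM in non-carriers. Its log2 ratio was -0.21 (-0.50 to 0.08), whose interval includes 0.

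No single nucleus made these levels. The highest post-processed microglia-like nucleus for HSPA6 held 19 of the 203 UMIs (9.36%), and 15 nuclei held 50% of them. For DNAJB1, HMOX1 and HSPD1, 20, 10 and 11 nuclei held 50%. The nucleus with 19 HSPA6 UMIs also held the most DNAJB1 (26 UMIs) together with 10 UMIs of HMOX1 and 3 of HSPD1, at 21002 UMIs in all. The nucleus with the most HMOX1 (15 UMIs) held 18 UMIs of DNAJB1, 2 of HSPA6 and 0 of HSPD1.

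At a finer clustering, post-processed microglia-like nuclei fell mostly into 3 clusters, which the libraries filled unequally. In 126 nuclei of a cluster led by CXCL8, PLEK and IL1A, genes of inflammatory signalling, HSPA6 stood at 504 CPM (425 to 593), DNAJB1 at 1227 CPM (1102 to 1362) and HMOX1 at 386 CPM (317 to 465). Only 1 pre-processed nucleus lay in this cluster. In 27 nuclei of a cluster led by FCGR3A, CP and DMP1 HSPA6 stood at 285 CPM (211 to 375), DNAJB1 at 507 CPM (407 to 624) and HMOX1 at 194 CPM (134 to 271). The 27 pre-processed nuclei of that cluster had 0 UMIs of HSPA6, 1 of DNAJB1 and 2 of HMOX1. The cluster led by ACRBP, CCDC170 and IL6R had 20 post-processed nuclei, with 7 UMIs each of HSPA6 and DNAJB1 and 1 of HMOX1. The same cluster had 57 pre-processed nuclei, with 0 UMIs of any of them. HSPD1 stood at 202 CPM (153 to 261) in the first cluster, 108 CPM (65.1 to 169) in the second and 76.7 CPM (9.29 to 277) in the third, with intervals that overlap. HSPA6 in the third cluster, at 269 CPM (108 to 553), overlapped both others. As the clustering used all genes, these are descriptions. With only the first and second of these clusters taken as microglia-like, which leaves 28 pre-processed nuclei, the log2 ratios were 5.29 for DNAJB1, 2.95 for HMOX1 and 4.36 for HSPD1, the last with 0 pre-processed UMIs and 0.5 counts added.

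The other genes of the pathways were taken from lists written with earlier results of these data known. Many genes of these lists are not among the listed features, so each pathway was seen only in part. The features held 20 of 53 cytosolic heat shock genes, 17 of 30 haem and iron genes and 12 of 26 NRF2 and BACH1 genes. Of the cytosolic heat shock list, 15 genes besides HSPA6 and DNAJB1 had at least 10 UMIs in microglia-like nuclei, of which 4 were at least 2-fold higher and 0 at least 2-fold lower in post-processed nuclei. Their median log2 ratio was 0.25, against -0.11 over all 5071 genes, of which 11.8% were at least 2-fold higher and 16.0% at least 2-fold lower. These shares are the background for each list that follows. Genes are counted as past 2-fold by their ratio alone, and some of their intervals include 0. DNAJA1, another HSP40, had 218 UMIs in post-processed and 3 in pre-processed microglia-like nuclei, a log2 ratio of 4.06. PTGES3, the HSP90 co-chaperone p23, had 160 UMIs in post-processed and 4 in pre-processed nuclei, a log2 ratio of 3.25. HSPA13 had 26 UMIs in post-processed and 0 in pre-processed nuclei, at least 2.31-fold higher. FKBP4, named after its value was seen, was the other one past 2-fold, at 1.03 (-1.23 to 6.98) from 11 post-processed UMIs and 1 pre-processed UMI. The lowest were DNAJB5 at -0.88 and DNAJB2 at -0.70.

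HSPD1 had the highest log2 ratio of the measured mitochondrial chaperones and proteases, at 2.60 (1.21 to 5.12) from 3 pre-processed UMIs. Of 9 others measured, 3 were at least 2-fold higher (11.8% over all genes), and the median was -0.20. These were HSPA9 (mitochondrial HSP70) at 1.82 (0.55 to 3.90), the protease subunit CLPX at 1.17 (0.19 to 2.51) and DNAJC19 at 1.13 (-0.62 to 4.56). All 3 intervals overlapped that of HSPD1. The lowest were PHB2 at -0.84 and LONP1 at -0.63. Of 11 genes of endoplasmic reticulum stress, 3 were at least 2-fold higher (11.8% over all genes), the lumenal chaperones CALR (2.85, from 40 post-processed UMIs and 1 pre-processed UMI), HSP90B1 (1.46) and HSPA5 (1.16), with a median of 0.18. The lowest were ASNS at -0.79 and PDIA6 at -0.36.

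HMOX1, chosen with its ratio known, had a higher log2 ratio than the other measured genes that handle haem and iron. Of 12 other genes of haem and iron handling, 0 were at least 2-fold higher and 3 at least 2-fold lower in post-processed microglia-like nuclei, with a median log2 ratio of -0.07. Over all genes the shares were 11.8% and 16.0%, and counts this small are near them. The highest were ACO1 (0.86), the iron exporter SLC40A1 (0.64) and ABCG2 (0.35). The interval of ACO1 (-0.50 to 2.97) overlapped that of HMOX1 (2.41 to 7.34). The lowest were UROD (-2.69), an enzyme of haem synthesis, and the metal transporter SLC39A14 (-1.20), with 5 and 15 UMIs in post-processed and 9 each in pre-processed nuclei. SLC48A1, named after its value was seen, was the other one past 2-fold lower, at -1.09. Of 12 genes of the NRF2 and BACH1 axis, 1 was at least 2-fold higher, MAFF at 1.15 (-1.08 to 7.10), and 1 at least 2-fold lower, ME1 at -2.21. These counts are near the 11.8% and 16.0% over all genes, and the median was -0.17. BACH1, the repressor of HMOX1, stood at 0.90, TXN at 0.47 and KEAP1, the inhibitor of NRF2, at -0.63.

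Immediate early genes, which cells switch on within minutes of a stimulus, were higher almost throughout. Of 15 measured, 14 were at least 2-fold higher and 0 at least 2-fold lower in post-processed microglia-like nuclei, with a median log2 ratio of 3.67, or 3.21 with the 2 genes that had 0 pre-processed UMIs set at their lower bound. FOS had 1324 UMIs in post-processed and 1 in pre-processed nuclei, a log2 ratio of 7.88. DUSP2 had 120 UMIs in post-processed and 0 in pre-processed nuclei, at least 10.7-fold higher, and KLF2 stood at 5.53. The lowest were IER2 at 0.57 (-0.28 to 1.64) and MYC at 1.55 (-0.59 to 7.48). Of 8 genes known from microglial activation outside the body, all 8 had ratios above 2-fold with 0.5 counts added, at a median of 1.97, or 1.70 with bounds. CXCL8 had 13 UMIs and ICAM1 18 UMIs in post-processed nuclei and both had 0 in pre-processed ones, which gives only at least 1.16-fold and at least 1.60-fold higher against the floor of 3 counts. By its counting interval, which begins at a log2 ratio of -0.30, CXCL8 was not shown to be higher. The same holds for IL1B, with an interval of -0.50 to 3.58, and for GADD45B, named after its value was seen, at 2.06 (-0.0042 to 7.98). IL1A stood at 4.55, TNFAIP3 at 1.64 and IL1B at 1.02.

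**Figure D5:**
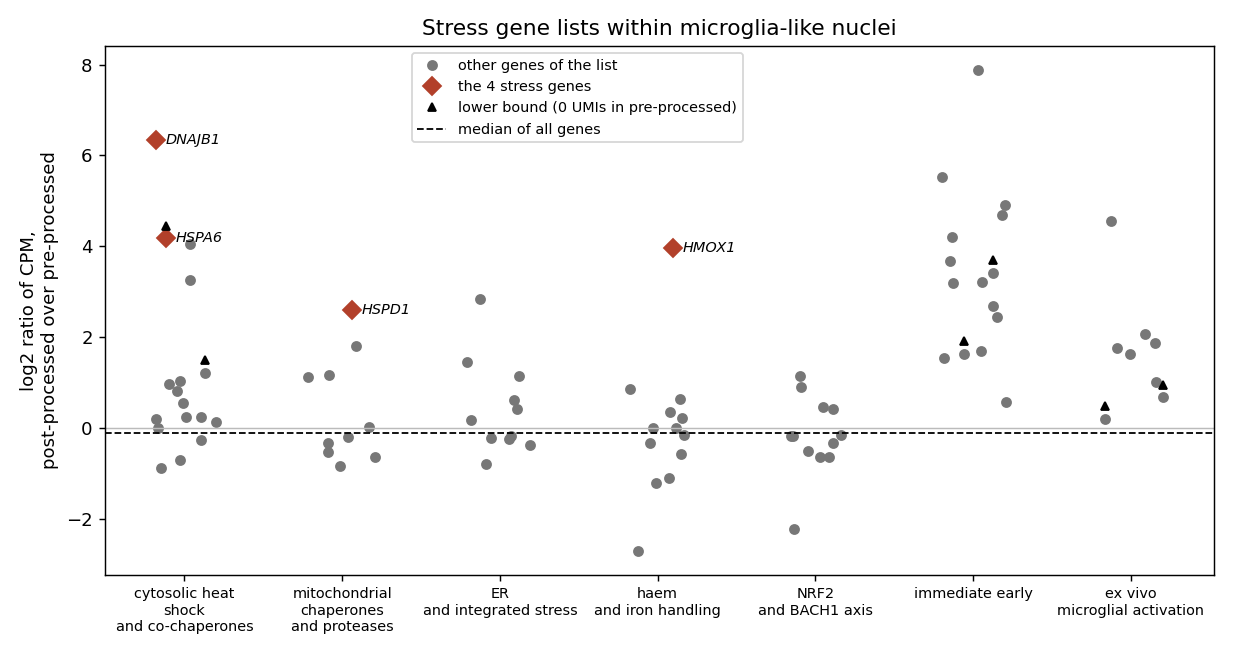
Log2 ratio of CPM (0.5 counts added), post-processed over pre-processed, within microglia-like nuclei, for each measured gene of 7 lists. Diamonds are the 4 stress genes, triangles mark genes with 0 pre-processed UMIs, drawn at their lower bound, and the dashed line is the median of all genes at -0.11. HMOX1 lies above the other measured haem and iron genes, which lie at or below 0.86, while 14 of 15 immediate early genes lie above 1.

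Some of these genes differed between nuclei that carried several stress genes and nuclei that carried none. In post-processed microglia-like nuclei the heat shock list without HSPA6 and DNAJB1 summed to 2339 CPM in the 85 nuclei with at least 2 stress genes, 1923 CPM in the 54 with 1 and 1694 CPM in the 37 with none. DNAJA1 stood at 554 CPM (476 to 640) in nuclei with at least 2 and 193 CPM (92.3 to 354) in those with none. PTGES3 stood at 395 CPM (330 to 469) with at least 2 and 116 CPM (42.4 to 251) with none. Both belong to the summed heat shock list, whose other genes together stayed near level over these groups. FOS stood at 2953 CPM (2770 to 3145) in nuclei with at least 2, against 1752 CPM (1411 to 2151) with none. IL1A stood at 900.2 CPM (801 to 1009) with at least 2, 449 CPM (334 to 592) with 1 and 924 CPM (681 to 1225) with none. TNFAIP3 ran the other way, at 170 CPM (129 to 221) with at least 2, against 347 CPM (205 to 548) with none, with intervals that overlap. The other genes of haem and iron handling summed to 1791 CPM with at least 2 and 1579 CPM with none.

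Markers of other classes moved with the same split. The 7 oligodendrocyte markers, all detected in each of these groups, summed to 7111 CPM in nuclei with at least 2 stress genes, 6768 CPM in those with 1 and 2753 CPM in those with none. The 11 microglial markers, all detected too, summed to 11773, 11172 and 15422 CPM in the same order. Neuron markers summed to 5532, 6534 and 4101 CPM, astrocyte markers to 286, 261 and 135 CPM and oligodendrocyte precursor markers to 766, 1348 and 385 CPM. Not all markers of these 3 classes were detected. Depth moved with it as well, with medians of 2244 UMIs in nuclei with at least 2 and 1186 UMIs in nuclei with none. The part of depth or of RNA of other classes in the split was not tested. Both libraries had oligodendrocyte markers in microglia-like nuclei, at 6573 CPM in post-processed and 6167 CPM in pre-processed ones. Neuron markers stood at 5608 CPM in post-processed and 10194 CPM in pre-processed microglia-like nuclei.

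The genes with the highest ratio of nuclei with at least 2 stress genes over nuclei with none were TNIK, CCNI, UNC5C, JAKMIP2, NEGR1, SGIP1, NTRK2, STMN1, CADPS2 and JPH1, out of 2688 ranked. TNIK had 89 UMIs in nuclei with at least 2 and 0 in nuclei with none, at least 4.69-fold higher. UNC5C, a netrin receptor, had 207 UMIs in the first of these and 1 in the second, a log2 ratio of 4.45 (2.54 to 10.34). Single nuclei held between 12.5% and 30.4% of the UMIs of these 10 genes. The nuclei without a stress gene summed to 51939 UMIs, against 328799 UMIs in the others, so few UMIs stand behind the zeros.

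Across the 10 groups of class and library with at least 20 nuclei, the genes whose levels were most like each stress gene were ranked by Pearson's correlation of log2(CPM + 1) among 2694 genes. The points share libraries and depth, and no p is given. For HSPA6 they were DNAJB1 (0.987), FOS (0.984), ANXA1 (0.969), JUN (0.961) and KLF2 (0.939). For DNAJB1 they were HSPA6 (0.987), ANXA1 (0.976), FOS (0.976), MOB4 (0.949) and ZFAND5 (0.948). For HMOX1 they were IL1A (0.975), TNFAIP3 (0.960), GSDMD (0.960), GTF3C3 (0.944) and ARPC2 (0.942). For HSPD1 the likeness was lower, led by SNAP23, DCTN4 (0.878) and NACA (0.859). Between the stress genes themselves it was 0.679 for HSPA6 with HMOX1, 0.669 for HSPA6 with HSPD1 and 0.504 for HMOX1 with HSPD1.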

How the data were processed

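The deposited files give raw UMI counts for each gene in each barcode, as whole numbers. DRAGEN made them, per the submitters' processing notes, and the series text adds Seurat. The DRAGEN version, build, annotation and barcode calling were not given in the sources used here. UMI totals cover the listed genes only, and genes that are not listed were not analysed here. Groups follow the sample titles.

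Barcodes with at least 100 detected genes were clustered in Seurat 5.3.0 under R 4.3.3 (10000 as scale factor, 2000 variable genes, 30 components, resolution 0.5). A cluster was named when at least 3 markers of a class were raised 1.5-fold, no other class had more markers among its 10 leading genes, and its median UMIs reached its library's median divided by 2. Doublets were called with Scrublet and kept. The caller marked only 1 of 494 post-processed and 4 of 2125 pre-processed nuclei, too few to rely on.

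UMIs were summed per class and library in Python 3.11.15. Log2 ratios have 0.5 counts added, while the folds given over all nuclei are ratios of CPM without added counts. Both have conditional binomial intervals, levels have Poisson intervals and shares have Clopper-Pearson intervals. No test was possible with 1 library per group. Other genes were named by list (at most the 3 highest and 2 lowest), or as the 5 most like each stress gene and the 10 highest ratios in nuclei with 2 or more of them. For comparison with nuclei lacking stress genes, leading genes of those lists were taken. The 4 genes and all lists were chosen with earlier results of these data known. Ratios were checked on simulated counts. Alternatives covered clustering, naming, thinning, filters, scaling and added counts.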

Additional observations from a re-analysis of the deposited data

Results flagged for a closer look

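The barcodes left out for having fewer than 100 detected genes carried stress gene RNA above the level of the pre-processed library. HSPA6 stood at 931 CPM (614 to 1355), DNAJB1 at 1035 CPM (698 to 1477) and HMOX1 at 414 CPM (214 to 723) in these 411 post-processed barcodes, against 0.313, 12.8 and 0.939 CPM over all pre-processed nuclei. These levels rest on 27, 30 and 12 UMIs, and they were not recomputed without barcodes near a deeper one.

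HSPD1 had opposite signs in oligodendrocyte-like and microglia-like nuclei, with a post-processed over pre-processed log2 ratio of -0.0349 in oligodendrocyte-like and 2.60 in microglia-like nuclei. The difference between the classes was not tested, and the interval of the negative value includes 0. Scaled by the median of gene ratios, the oligodendrocyte-like value was 0.0349, and the signs were then the same.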

How the results depend on the processing

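Of 214 recomputed values, 189 stayed within their counting interval and 25 moved beyond it. The sign changed in 16, all differences between carriers and non-carriers of a pair of genes. HSPD1 by DNAJB1 stayed positive at every setting, although its interval as reported (-1.34 to 24.1 points) includes 0. HMOX1 by DNAJB1 turned negative only with at least 500 detected genes, at -0.42 points. The other pairs have no stable direction (HSPA6 with HSPD1 gave -5.66 points as reported and 10.7 points at 500 UMIs). At resolution 1.0 the microglia-like log2 ratios were 5.29 for DNAJB1, 2.95 for HMOX1 and 4.36 for HSPD1, within wide intervals. The share of post-processed UMIs in microglia-like nuclei was 98.0% for HSPA6, 95.9% for DNAJB1, 100% for HMOX1 and 83.0% for HSPD1 when the shallow cluster was counted in, and the same at resolution 0.2. With at least 500 detected genes it was 97.5% for HSPA6, 95.5% for DNAJB1 and 100% for HMOX1, and with classes taken from marker UMIs 88.7% for HSPA6 and 72.9% for HMOX1. At resolution 0.2 and at 500 genes the cluster closest to microglia met no name and was used as it stood. Nuclei thinned to 500 UMIs carried HSPA6 in 23.2% and DNAJB1 in 34.5%, and 17.3% carried at least 2 genes. Without thinning the shares were 41.5% for HSPA6, 62.5% for DNAJB1, 26.1% for HMOX1, 25.6% for HSPD1 and 48.3% for at least 2 genes. The differences between carriers and non-carriers without thinning were 26.6 points for DNAJB1 by HSPA6 and 24.8 points for HMOX1 by DNAJB1. Scaled by the median of gene ratios, the log2 ratios over all nuclei were 5.31 for DNAJB1 and 1.28 for HSPD1. Beyond depth and fewer or more nuclei, the cause was not tested. Leaving out barcodes near a deeper one, or the deepest microglia-like nucleus, both chosen after seeing the data, moved no recomputed value beyond its interval. Levels by depth were not recomputed in this way. No paired analysis was possible because each group has 1 library, and no replicate could be left out. Depth limits the pairs of genes, since 200 UMIs left 17 HSPA6 carriers.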
